A study of Mus musculus with 9 samples.

Results

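The genes of phosphofructokinase and of its bifunctional regulators were followed through osteoblast differentiation of mouse calvarial cells by RNA-seq. They comprise the 3 isoforms of 6-phosphofructo-1-kinase (PFK1) Pfkl, Pfkm and Pfkp, the 4 isoforms of 6-phosphofructo-2-kinase/fructose-2,6-bisphosphatase (PFKFB) Pfkfb1, Pfkfb2, Pfkfb3 and Pfkfb4, and Tigar. They were picked out by gene symbol, by a rule that uses no measured value, and each symbol matched 1 gene, so the 8 genes are 8 of the 40548 genes listed for days 0 and 7 and of the 40526 listed for day 4. The study asked how metabolism changes as osteoblasts mature. All cells were primary cells from the calvaria of C57BL/6 pups (C57BL/6J in the methods), aged 2 to 3 days by the sample labels and over a wider range by the methods, which used pups of both sexes. Day 0 cells were confluent and had not been differentiated, and day 4 and day 7 cells had spent that time in mineralization medium, which supplied β-glycerol phosphate and ascorbic acid. There were 3 libraries per stage, described as biological replicates. Mineralized cells were released with collagenase I before trypsin, whereas cells without mineral received trypsin alone, so release and stage cannot be told apart. The labels name no transgene, deletion or drug. The methods used wild-type pups and pups with a ColI-GFP reporter, and which of them gave these libraries is not given in the sources used here.

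PFK1 phosphorylates fructose 6-phosphate to fructose 1,6-bisphosphate, the first committed step of glycolysis, and works as a tetramer that can mix the liver (Pfkl), muscle (Pfkm) and platelet (Pfkp) subunits. It is inhibited by ATP and citrate and activated by fructose 2,6-bisphosphate. The PFKFB enzymes both make and remove that activator. Of these isoforms, Pfkfb3 has the strongest bias toward the kinase, and Pfkfb3 and Pfkfb4 are known as genes that respond to low oxygen. Tigar, a phosphatase first described as a target of p53, lowers fructose 2,6-bisphosphate in cells. Osteoblasts are known to take up much glucose and to turn most of it into lactate.

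Levels are given as RPKM, reads per kilobase of gene model after scaling to the reads counted on genes, so that genes of different length can be compared. The reads counted on genes ranged from 7741204 to 14013219 per library at day 0, from 32820610 to 37306090 at day 4 and from 10675858 to 15622755 at day 7. Day 4 lies in tables of its own at greater depth and entered no test. Its values beside the other stages are a description only, since table and depth differ with the stage. Day 7 was tested against day 0 with limma on log2(CPM + 0.5), where CPM are the same reads without division by length, over 12712 genes, with a Benjamini-Hochberg adjusted p of 0.05 as the threshold. Fold changes on this scale understate the change of genes with few reads. An exact permutation test of 3 libraries against 3 cannot give a two-sided p below 0.1. The summed RPKM of 8 osteoblast markers ran from 1801 to 2515 at day 0 and from 8042 to 10135 at day 7. Col1a1 made up most of it, with means of 2158 and 5475 RPKM, and Ibsp had means of 3.82 and 2808. By limma Runx2 alone of the 8 did not pass, with means of 8.06 and 9.47. Markers of other cells moved as well. The sum of 7 macrophage markers ran from 42.7 to 73.3 at day 0 and from 79.0 to 105 at day 7. Lyz2 made up most of it, with means of 47.7 and 79.4 RPKM. For 6 osteoclast markers the sum ran from 101 to 134 and from 234 to 243, nearly all of it Ctsk, at 120 and 232. Calcr, Ocstamp and Dcstamp had means of at most 0.196 at any stage, though no gene of either list was at 0 in all libraries. The sum of 6 skeletal muscle markers went from a range of 2.10 to 3.47 to one of 4.29 to 8.27. Acta1 made up most of it, with means of 2.17 and 4.56, and Myog, Ckm and Myh3 had means of at most 0.0462 at any stage. The sum of 4 adipocyte markers went from 2.00 to 4.39 to 2.10 to 2.31. Fabp4 had means of 1.90 and 0.550 and Pparg of 1.08 and 1.68. The 5 endothelial markers summed to at most 0.459 at day 0 and 0.351 at day 7, with 1 of them at 0 throughout. The sum of 4 chondrocyte markers went from 158 to 455 down to 43.9 to 124. Col2a1 made up most of the chondrocyte sum, with means of 239 and 53.5 RPKM. By limma Col2a1, Sox9 and Col9a1 were called lower at day 7, whereas Acan was called higher, with means of 5.21 and 11.0. After median-of-ratios scaling 0 chondrocyte markers were called higher. The part of these other cells in the results was not tested, and in bulk samples fewer cells of a type and less RNA per cell cannot be told apart.

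At day 7, Pfkfb3, Pfkl and Pfkp were called higher than at day 0, Pfkfb1 was called lower, and Pfkm, Pfkfb2, Pfkfb4 and Tigar did not pass the threshold. By limma, 3 of the 8 genes were called higher, beside 12.6% of all genes tested, and 1 was called lower, beside 18.6%. The lower call of Pfkfb1 rested on 9 to 43 reads per library and was lost in 9 of the 16 alternative settings that tested it. Pfkm and Pfkfb4 passed as higher in the 4 alternatives that rescale the libraries. All day 7 libraries were above all day 0 libraries for 4 of the 8 genes, Pfkl, Pfkm, Pfkp and Pfkfb3, beside 16.9% of all genes, and below for 0 of 8, beside 25.4%. From day 0 to day 4, 3 of 8 genes were higher in every library (Pfkl, Pfkp and Pfkfb3, beside 21.6% of all genes) and 1 was lower (Pfkfb1, beside 21.9%). From day 4 to day 7, Pfkfb3 alone of the 8 was higher in every library, beside 13.6% of all genes, and 0 were lower, beside 25.0%. Over all genes tested, log2 fold changes had a median of −0.11, and of the genes called, 40.3% were higher at day 7, against 51.8% after median-of-ratios scaling, which brought that median to −0.01.

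**Figure D1:**
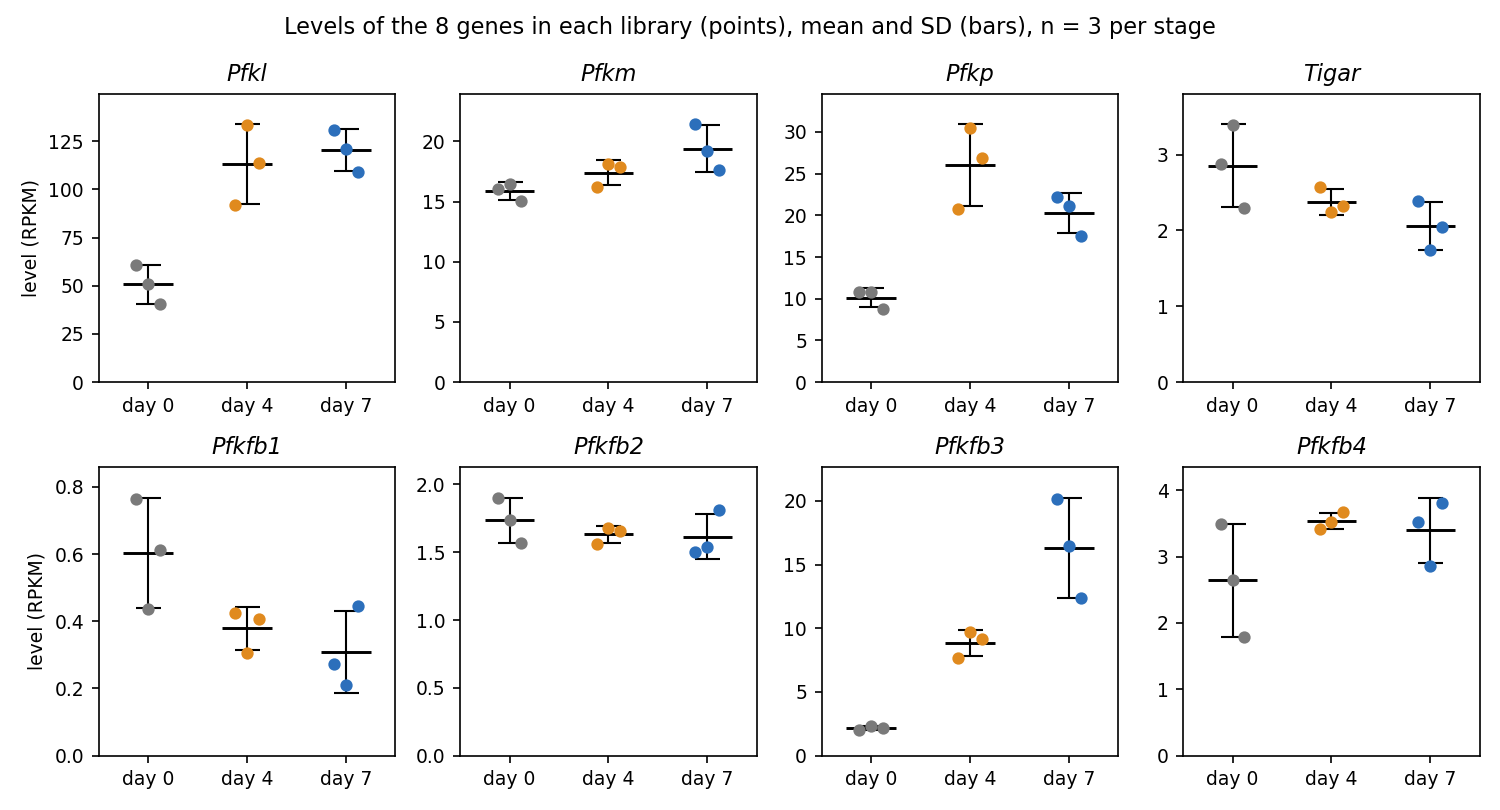
Level of each of the 8 genes (RPKM, linear axes from 0) at days 0, 4 and 7, with each library as a point and the mean and SD as bars, n = 3 per stage. Pfkfb3 is the gene whose libraries are separate at every stage, with means of 2.15, 8.85 and 16.3 RPKM, whereas Pfkl and Pfkp separate day 0 from the later stages.

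The promoters of the genes called higher are shown because hypoxia-inducible factor binds an ACGTG or GCGTG core, and Pfkfb3 is a textbook target of it. Each window runs from 250 bases before to 50 bases after a transcript start annotated by RefSeq on GRCm38.p6, is printed 5′ to 3′ on the gene's strand, and has in capitals each ACGTG or GCGTG on either strand (CACGT and CACGC when read on the other strand). The palindrome CACGTG holds ACGTG on both strands and is 1 run of capitals. The starts are those of the annotation, and their use in these cells was not measured. The Pfkl window lies at chr10:78009758-78010057 on the minus strand and the Pfkp window at chr13:6648722-6649021 on the minus strand. Pfkfb3 has an upstream window at chr2:11553880-11554179 and one inside the gene at chr2:11502041-11502340, both on the minus strand.
Pfkl: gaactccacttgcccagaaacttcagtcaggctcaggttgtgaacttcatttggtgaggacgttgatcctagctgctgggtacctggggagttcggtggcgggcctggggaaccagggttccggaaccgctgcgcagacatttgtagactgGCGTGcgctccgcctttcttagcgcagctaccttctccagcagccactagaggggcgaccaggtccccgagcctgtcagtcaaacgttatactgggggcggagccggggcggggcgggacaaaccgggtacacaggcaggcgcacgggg
Pfkp: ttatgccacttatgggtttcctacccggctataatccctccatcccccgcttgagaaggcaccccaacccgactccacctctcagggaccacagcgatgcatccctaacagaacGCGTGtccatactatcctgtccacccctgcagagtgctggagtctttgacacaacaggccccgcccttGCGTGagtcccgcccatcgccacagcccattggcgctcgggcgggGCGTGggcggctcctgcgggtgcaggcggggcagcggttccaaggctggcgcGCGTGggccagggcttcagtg
Pfkfb3, upstream start: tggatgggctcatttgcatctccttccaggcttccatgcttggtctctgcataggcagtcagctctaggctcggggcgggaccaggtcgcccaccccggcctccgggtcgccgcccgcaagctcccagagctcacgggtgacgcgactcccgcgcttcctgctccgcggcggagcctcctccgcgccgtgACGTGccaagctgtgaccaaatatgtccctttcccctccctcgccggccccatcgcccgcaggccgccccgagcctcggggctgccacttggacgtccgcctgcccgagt
Pfkfb3, start inside the gene: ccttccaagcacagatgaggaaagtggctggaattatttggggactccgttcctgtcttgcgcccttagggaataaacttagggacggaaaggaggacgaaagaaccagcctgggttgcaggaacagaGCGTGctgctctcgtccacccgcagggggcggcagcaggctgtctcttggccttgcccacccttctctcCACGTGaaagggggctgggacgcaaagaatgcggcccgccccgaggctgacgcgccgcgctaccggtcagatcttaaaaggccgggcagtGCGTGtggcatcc
The Pfkl window holds 1 GCGTG, that of Pfkp holds 4, the upstream window of Pfkfb3 holds 1 ACGTG, and the one inside the gene holds 2 GCGTG and 1 CACGTG. Of the 32851 windows of this length in the mouse table, 19.6% held ACGTG, 32.4% held GCGTG, 7.15% held CACGTG and 43.8% held either core. All 8 genes had a window, 17 windows in all, some of them overlapping, and 12 of the 17 held either core. Of the 8 genes, 7 had either core in a window, among them Pfkfb1, called lower, and Pfkfb4, which did not pass the threshold. The 1 window of Tigar held none, whereas windows of Pfkm and Pfkfb2, which did not pass either, held CACGTG. A match of 5 letters is a description of the window and no measure of binding.

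Pfkl carried most of the PFK1 transcript at every stage, and its level at days 4 and 7 exceeded that at day 0 in every library. The gene lies at chr10:77986947-78010083 on the minus strand (GRCm38, as are the positions that follow). It was measured at 60.6, 50.8 and 40.7 RPKM in the day 0 libraries, at 92.2, 133 and 114 at day 4 and at 131, 121 and 109 at day 7. The stage means were 50.7 ± 9.94, 113 ± 20.7 and 120 ± 10.7 RPKM (SD, n = 3), so days 4 and 7 overlapped and day 0 lay below both. By rank it went from place 876 of 21878 genes with reads at day 0 to place 318 of 22009 at day 7. The log2 fold change from day 0 to day 7 was 1.26 (SE 0.16, limma adjusted p = 1.13e-08). It was called higher under each of 17 alternative settings, with log2 fold changes from 1.11 to 1.41.

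Pfkp peaked in mean level at day 4, although its day 4 and day 7 libraries overlapped. The gene lies at chr13:6579768-6648777 on the minus strand. Its day 0 libraries held 10.8, 10.8 and 8.81 RPKM, its day 4 libraries 20.8, 30.4 and 26.8, and its day 7 libraries 22.2, 21.1 and 17.6. The means were 10.1 ± 1.15, 26.0 ± 4.87 and 20.3 ± 2.42 RPKM. Day 0 lay below both later stages in every library, and the log2 fold change at day 7 was 1.00 (SE 0.16, limma adjusted p = 1.07e-06), called in 17 of 17 alternatives. Its annotated exons share 748 bases with Pitrm1 on the opposite strand, and 5.10% of its 50-base stretches also occur in another gene. Pitrm1 had a mean of 117 CPM at day 0, beside 95.2 for Pfkp, and of 85.3 at day 7, beside 190.4 for Pfkp. The strand setting of the counting is not given in the sources used here.

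Pfkm, the subunit named for muscle, differed least among the PFK1 genes. The gene lies at chr15:98092589-98132451 on the plus strand, and 8.83% of its 50-base stretches are shared with Gm26513, whose mean was at most 0.390 CPM at any stage. Its libraries held 16.1, 16.5 and 15.1 RPKM at day 0, 16.2, 18.2 and 17.9 at day 4 and 21.4, 19.2 and 17.6 at day 7. Every day 7 library was above every day 0 library, with means of 15.9 ± 0.732 and 19.4 ± 1.92 RPKM, while day 4 overlapped both. The log2 fold change of 0.28 (95% interval −0.03 to 0.60, limma adjusted p = 0.176) did not pass the threshold as deposited. It passed as higher in the 4 alternatives that rescale the libraries, with values from 0.39 to 0.44, and in none of the other 13.

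Within PFK1, the share of Pfkl was larger and that of Pfkm smaller at each later stage than at day 0. Pfkl made up 69.3%, 65.1% and 63.1% of the summed PFK1 RPKM in the day 0 libraries, 71.4%, 73.3% and 71.7% at day 4 and 75.0%, 75.1% and 75.7% at day 7. These ranges did not overlap between any stages, with means of 65.8% ± 3.18, 72.1% ± 1.04 and 75.2% ± 0.378 (SD, n = 3). The share of Pfkm was 20.9% ± 2.47 before differentiation, 11.3% ± 1.28 at day 4 and 12.1% ± 0.200 at day 7, where the last pair of stages overlapped. For both genes the exact permutation test of day 7 against day 0 gave a two-sided p of 0.1, the smallest this design allows. Pfkp accounted for 13.3% ± 0.810 before differentiation, 16.6% ± 0.441 at day 4 and 12.6% ± 0.452 at day 7, so that day 4 stood above the other stages, whose ranges overlapped.

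The order of Pfkm and Pfkp at day 0 rested on the length used. The gene model behind the RPKM of Pfkp is 9395 bases long, 2.27 times its longest annotated coding transcript of 4145 bases, whereas the model of Pfkm is 2957 bases against 2879. With the coding transcript lengths, the PFK1 share of Pfkp came to 23.3%, 28.0% and 22.1% at days 0, 4 and 7, and that of Pfkm to 16.6%, 8.63% and 9.60%. Pfkl remained the leading subunit with either length, at 60.1%, 63.3% and 68.3% with the coding lengths. Its day 4 share was then 3.27 percentage points above day 0, and 1.82 by CPM without division by length, against 6.33 by RPKM, and the day 0 and day 4 libraries overlapped by both of these measures. Day 7 stayed above day 0 in every library by each measure.

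**Figure D2:**
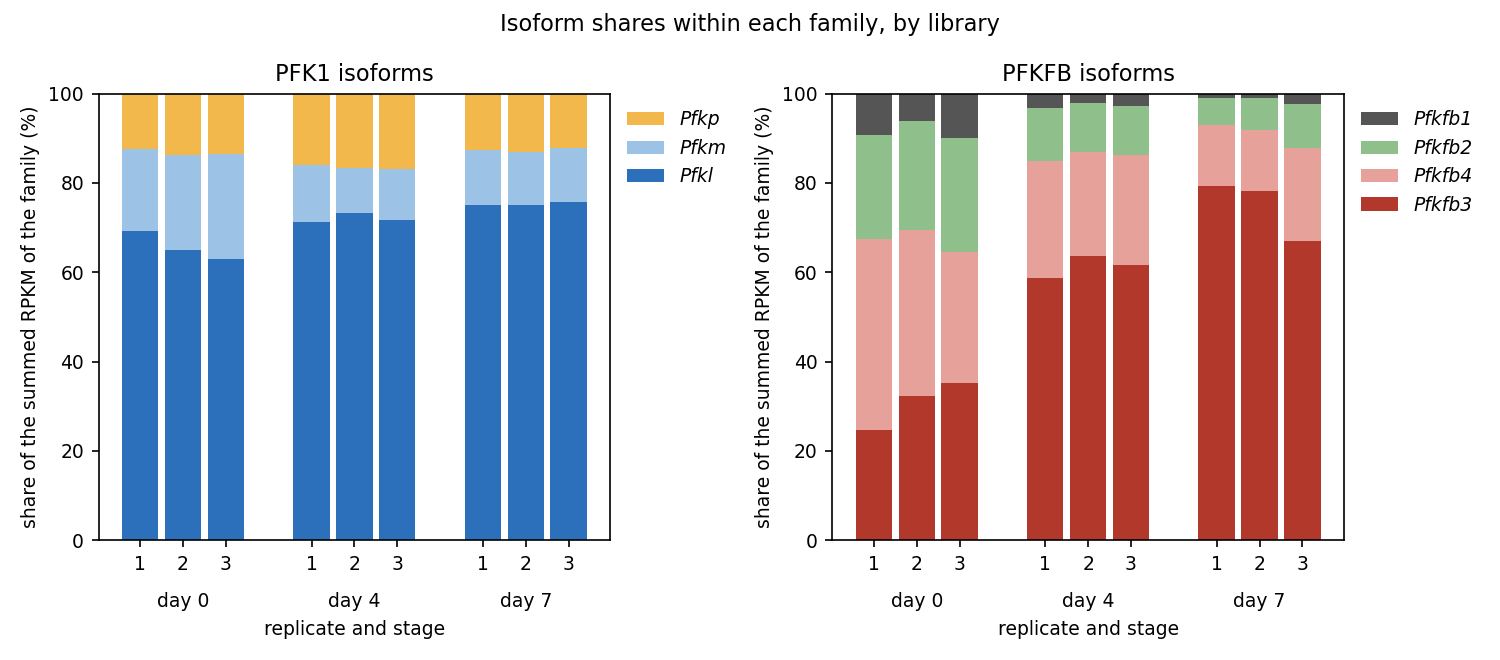
Share of each isoform in the summed RPKM of its family (%), with 1 stacked bar per library, replicates 1 to 3 of days 0, 4 and 7, PFK1 on the left and PFKFB on the right. The Pfkl segment goes from 63.1% to 69.3% at day 0 to 75.0% to 75.7% at day 7, and the Pfkfb3 segment from 24.6% to 35.1% to 67.0% to 79.2%.

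Summed over the isoforms, PFK1 reached 76.8 ± 11.5 RPKM before differentiation, 156 ± 26.5 at day 4 and 160.0 ± 15.0 at day 7. Its day 4 and day 7 libraries overlapped and both lay above day 0 (day 7 against day 0, exact permutation test, two-sided p = 0.1). Relative to its neighbours in glycolysis, the PFK1 sum was 3.67 ± 0.475 times the hexokinase sum at day 0, 2.88 ± 0.109 times at day 4 and 2.39 ± 0.101 times at day 7, lower in every library at each later stage. Against Gpi1, the isomerase just before it, the ratio was 2.51 ± 0.289 at day 0 and 2.47 ± 0.0718 at day 7, with overlapping libraries (exact permutation p = 1). Against the aldolase sum, the step just after, it was 0.217 ± 0.0153 at day 0, 0.244 ± 0.00621 at day 4 and 0.234 ± 0.00696 at day 7, with day 4 above day 0 in every library and day 7 overlapping both (day 7 against day 0, exact permutation p = 0.2). Against the pyruvate kinase sum, the step that makes pyruvate, it was 0.163 ± 0.00655, 0.194 ± 0.00515 and 0.200 ± 0.00535, with both later stages above day 0 in every library (exact permutation p = 0.1). Fbp1 and Fbp2, which encode the phosphatases that reverse the PFK1 step, summed to 0.284 ± 0.220 RPKM before differentiation, 1.17 ± 0.369 at day 4 and 0.450 ± 0.110 at day 7.

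Pfkfb3 showed the largest change of the 8 genes. This kinase-biased isoform lies at chr2:11471433-11554077 on the minus strand. It was at 2.01, 2.31 and 2.15 RPKM in the day 0 libraries, 7.69, 9.67 and 9.18 at day 4 and 20.2, 16.5 and 12.3 at day 7. The ranges were separate at each step, and the means were 2.15 ± 0.149, 8.85 ± 1.03 and 16.3 ± 3.91 RPKM. Behind these values stood 117 to 198 reads per library at day 0 and 1237 to 1936 at day 7. The log2 fold change from day 0 to day 7 was 2.85 (SE 0.17, 95% interval 2.51 to 3.20, limma adjusted p = 2.47e-19), which placed it 133rd among the 12712 genes by size of rise. It was called higher in 17 of 17 alternatives, with values from 2.69 to 3.05. The day 7 libraries spread more than those of the other stages, with replicate 3 lowest at 12.3 RPKM and still above the highest day 4 library.

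Pfkfb4, a further isoform known from testis and from cells short of oxygen, lies at chr9:108991778-109032228 on the plus strand. Its libraries held 3.50, 2.64 and 1.79 RPKM at day 0, 3.42, 3.52 and 3.67 at day 4 and 3.51, 2.86 and 3.82 at day 7. All stages overlapped, and day 0 spread most, from the lowest to near the highest values seen. The log2 fold change was 0.39 (95% interval −0.02 to 0.79, limma adjusted p = 0.151). Without day 0 replicate 1 it was 0.60 and passed as higher, as it did in the 4 alternatives that rescale the libraries. Without day 0 replicate 3 it was 0.14 and did not pass, and over all 17 alternatives its adjusted p ran from 0.0111 to 0.491.

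Pfkfb2, the isoform named for heart, lies at chr1:130689182-130729253 on the minus strand and stayed within a narrow range. Its libraries held 1.90, 1.74 and 1.57 RPKM at day 0, 1.56, 1.68 and 1.66 at day 4 and 1.50, 1.54 and 1.81 at day 7. The stages overlapped, and the log2 fold change of −0.10 had a 95% interval of −0.47 to 0.28 (limma adjusted p = 0.734), which leaves out changes of the size seen for Pfkl. Of its exons, 17.4% overlap the gene model Gm29427 on the same strand, whose mean was at most 0.0279 CPM in any stage, and the counting left out reads that could belong to more than 1 gene.

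Pfkfb1, the liver isoform, was the lowest of the 8 genes. It lies at chrX:150588229-150643878 on the plus strand and was at 0.763, 0.437 and 0.611 RPKM at day 0, 0.424, 0.307 and 0.407 at day 4 and 0.273, 0.210 and 0.446 at day 7. Only 19 to 43 reads per library stood behind it at day 0 and 9 to 28 at day 7. Every day 4 library was below every day 0 library, while day 7 replicate 3 exceeded day 0 replicate 2. Its log2 fold change at day 7 was −0.76 (SE 0.27, limma adjusted p = 0.0263), a call lost in 9 of the 16 alternatives that tested it, where the adjusted p ran from 0.0115 to 0.162 over all 16. The call was lost without day 0 replicate 1 (−0.60), day 0 replicate 3 (−0.74), day 7 replicate 1 (−0.71) or day 7 replicate 2 (−0.59). The annotated exons of Pfkfb1 share 123 bases with Apex2 on the opposite strand. Apex2 had means of 8.97 CPM at day 0 and 9.60 at day 7, beside 2.43 and 1.24 for Pfkfb1.

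The makeup of the PFKFB transcripts differed at every stage. Pfkfb3 made up 24.6%, 32.4% and 35.1% of the summed PFKFB RPKM in the day 0 libraries, 58.8%, 63.7% and 61.6% at day 4 and 79.2%, 78.1% and 67.0% at day 7. Its mean share was 30.7% ± 5.45, 61.3% ± 2.48 and 74.8% ± 6.74 (SD, n = 3), with no overlap between stages. Pfkfb4 made up 36.4% ± 6.77, 24.6% ± 1.45 and 16.0% ± 4.06, and Pfkfb2 24.4% ± 1.18, 11.4% ± 0.467 and 7.67% ± 1.98, each without overlap between stages. Since shares within a family sum to a whole, these smaller shares went with levels of Pfkfb2 and Pfkfb4 that overlapped between day 0 and day 7. Pfkfb1 made up 8.49% ± 2.06, 2.67% ± 0.614 and 1.50% ± 0.802, and its day 4 and day 7 ranges overlapped. The exact permutation test of day 7 against day 0 gave a two-sided p of 0.1 for each of the 4 shares, the smallest possible.

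By RPKM, no PFKFB isoform led in every library at day 0, where Pfkfb4 was ahead of Pfkfb3 in replicates 1 and 2 and behind it in replicate 3. With coding transcript lengths Pfkfb4 was ahead in replicate 1 only. By CPM, without division by length, Pfkfb3 led in all 3 day 0 libraries, with means of 37.7% for Pfkfb3, 31.0% for Pfkfb2 and 25.4% for Pfkfb4. At day 7 Pfkfb3 led in all 3 libraries by each measure, with 80.7% by CPM and 76.3% with coding transcript lengths.

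Summed PFKFB transcripts came to 7.14 ± 1.02 RPKM before differentiation, 14.4 ± 1.13 at day 4 and 21.6 ± 3.55 at day 7, higher in every library at each later stage (day 7 against day 0, exact permutation test, two-sided p = 0.1). PFK1 transcripts outnumbered PFKFB transcripts per length 10.7 ± 0.205 times at day 0, 10.8 ± 1.08 times at day 4 and 7.45 ± 0.531 times at day 7. The first pair of stages overlapped, and day 7 lay below both in every library.

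Tigar, the phosphatase that opposes fructose 2,6-bisphosphate, lies at chr6:127085116-127109557 on the minus strand. Its libraries held 2.87, 3.39 and 2.30 RPKM at day 0, 2.57, 2.24 and 2.32 at day 4 and 2.39, 1.74 and 2.05 at day 7. The stages overlapped, with means of 2.85 ± 0.545, 2.37 ± 0.173 and 2.06 ± 0.321 RPKM. The log2 fold change was −0.44 (95% interval −0.84 to −0.03, limma adjusted p = 0.0936) and did not pass after adjustment over all genes. It passed as lower without day 0 replicate 3 (−0.58) and with quality weights per library, and in none of the other 15 alternatives. Over all 17, its limma, edgeR or DESeq2 adjusted p ran from 0.0141 to 0.378.

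Ratios within a library do not depend on how libraries are scaled, but their size rests on the gene lengths used. By RPKM, Pfkfb3 was at 0.772 ± 0.142 times Tigar at day 0, 3.76 ± 0.686 times at day 4 and 7.97 ± 1.76 times at day 7, with no overlap between stages. The Pfkfb3 model is 7030 bases long against a longest coding transcript of 4801, whereas both are 3651 for Tigar. By CPM, without division by length, Pfkfb3 was above Tigar at day 0 too, with means of 15.1 and 10.4. Pfkfb3 over Pfkfb4 went from 0.882 ± 0.312 to 2.50 ± 0.248 and 4.91 ± 1.45, again without overlap. Among the PFK1 genes, Pfkl over Pfkm was 3.19 ± 0.539, 6.47 ± 0.837 and 6.21 ± 0.103, where days 4 and 7 overlapped. Pfkp over Pfkm was 0.637 ± 0.0459, 1.49 ± 0.196 and 1.04 ± 0.0495, separate at each stage and highest at day 4. Each of these ratios gave an exact permutation p of 0.1 for day 7 against day 0.

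**Figure D3:**
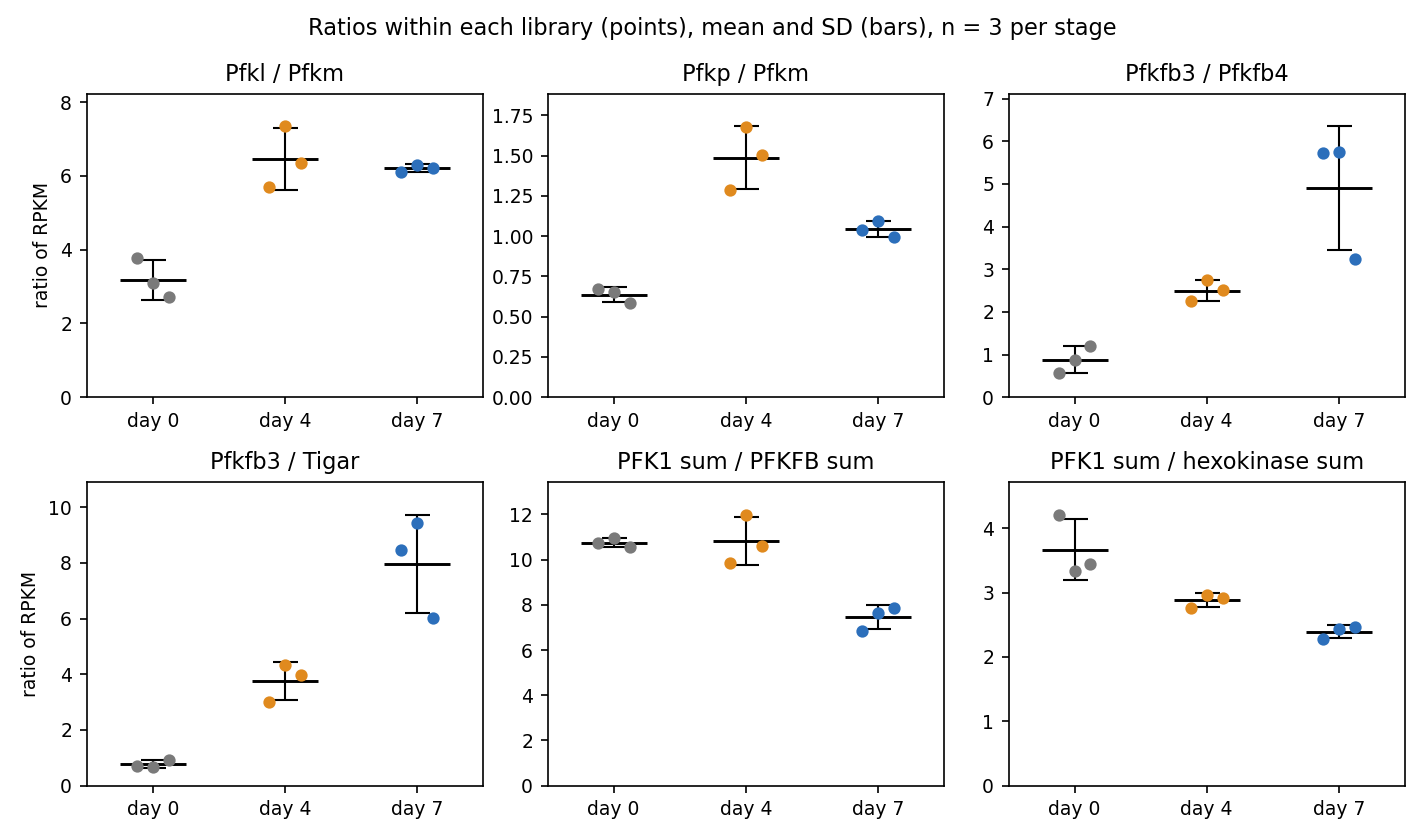
Ratios of RPKM within each library at days 0, 4 and 7 (points, with the mean and SD as bars, n = 3 per stage, axes from 0). Pfkfb3 over Tigar goes from a mean of 0.772 to 7.97, and PFK1 over PFKFB from 10.7 at day 0 to 7.45 at day 7. The size of these ratios rests on the gene lengths used.

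In order of mean RPKM, the day 0 sequence was Pfkl, Pfkm, Pfkp, Tigar, Pfkfb4, Pfkfb3, Pfkfb2 and Pfkfb1. The ranges of Tigar and Pfkfb4 overlapped there, as did those of Pfkfb4 and Pfkfb3, and the other neighbours were apart. At day 4 Pfkp stood ahead of Pfkm, Pfkfb3 was next, ahead of Pfkfb4 and Tigar, and no neighbours overlapped. At day 7 Pfkl remained far ahead, Pfkp overlapped Pfkm and Pfkm overlapped Pfkfb3, which was itself above Pfkfb4. Tigar and Pfkfb2 overlapped at day 7, and Pfkfb1 was last at every stage. Parts of this order rested on the gene model lengths. With coding transcript lengths, the share of Pfkp was above that of Pfkm in every library of each stage, with means of 23.3% and 16.6% at day 0. By CPM, Pfkfb3 had a day 0 mean of 15.1, above 10.5 for Pfkfb4 and 10.4 for Tigar.

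**Figure D4:**
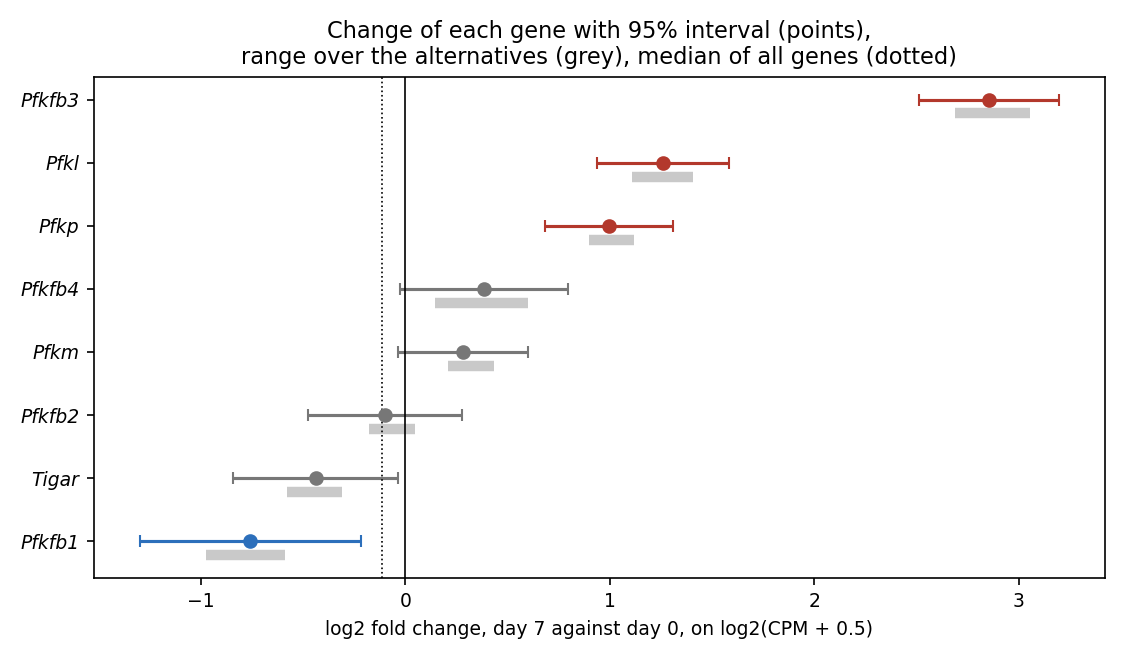
Log2 fold change of each gene at day 7 against day 0 on log2(CPM + 0.5), n = 3 per stage, with its 95% interval (points with bars, red called higher, blue called lower, grey not past the threshold), the range over the alternatives as grey strips and the median of all genes, −0.11, as a dotted line. Pfkfb3 at 2.85, Pfkl at 1.26 and Pfkp at 1.00 are the genes whose strips and intervals all lie above 0.

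Most other glycolysis genes were higher at day 7 too. Of 20 genes for the other glycolytic enzymes, 16 were tested. By limma 15 were higher and 0 lower at day 7, beside 12.6% and 18.6% of all genes. Their median log2 fold change was 1.18, beside −0.11 over all genes. The largest rise was that of Aldoc, an aldolase, at 3.61, and Eno2, a neuronal enolase, did not pass at −0.28. Pfkl and Pfkp lay near the median of the list and Pfkfb3 above all of its genes but Aldoc. Of 6 genes for reactions that reverse glycolysis, the 2 tested, Pck2 and G6pc3, did not pass, at 0.07 and 0.22, and 1 of them passed as higher after median-of-ratios scaling.

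Lists that bear on the regulators of these genes were counted in the same fit, where 12.6% of all genes tested were higher and 18.6% lower. Of 20 genes known to respond to hypoxia, 19 were higher and 0 lower, with a median of 1.98, and the largest rise was that of Egln3, a prolyl hydroxylase of hypoxia-inducible factor, at 4.75. Adm did not pass, at 0.15. Of 13 p53 targets, 1 was higher and 9 lower, with a median of −0.50. Gdf15 was the one higher, at 0.80, and the largest fall was that of Sesn1, at −1.15. Tigar, at −0.44, did not pass the threshold. Of the 8 pentose phosphate pathway genes, the route that Tigar favours, Rpia was higher at 1.07 and Rpe and G6pdx were lower, both at −0.55, with a median of −0.26. These pentose phosphate counts lay near the shares over all genes. The part of hypoxia or p53 in the levels of the 8 genes was not tested.

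Transcripts tied to proliferation and to the dissociation of cells were counted as well, beside the same 12.6% higher and 18.6% lower over all genes. Of 10 proliferation genes, 7 were lower and 0 higher, with a median of −0.60, and Mcm5, part of the replicative helicase, had the largest fall at −0.98. Of 13 immediate early and dissociation genes, 5 were higher and 1 lower, with a median of 0.53, led by Ier3 at 1.41, while Egr1 was lower at −0.83. The part of these in the levels of the 8 genes was not tested.

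**Figure D5:**
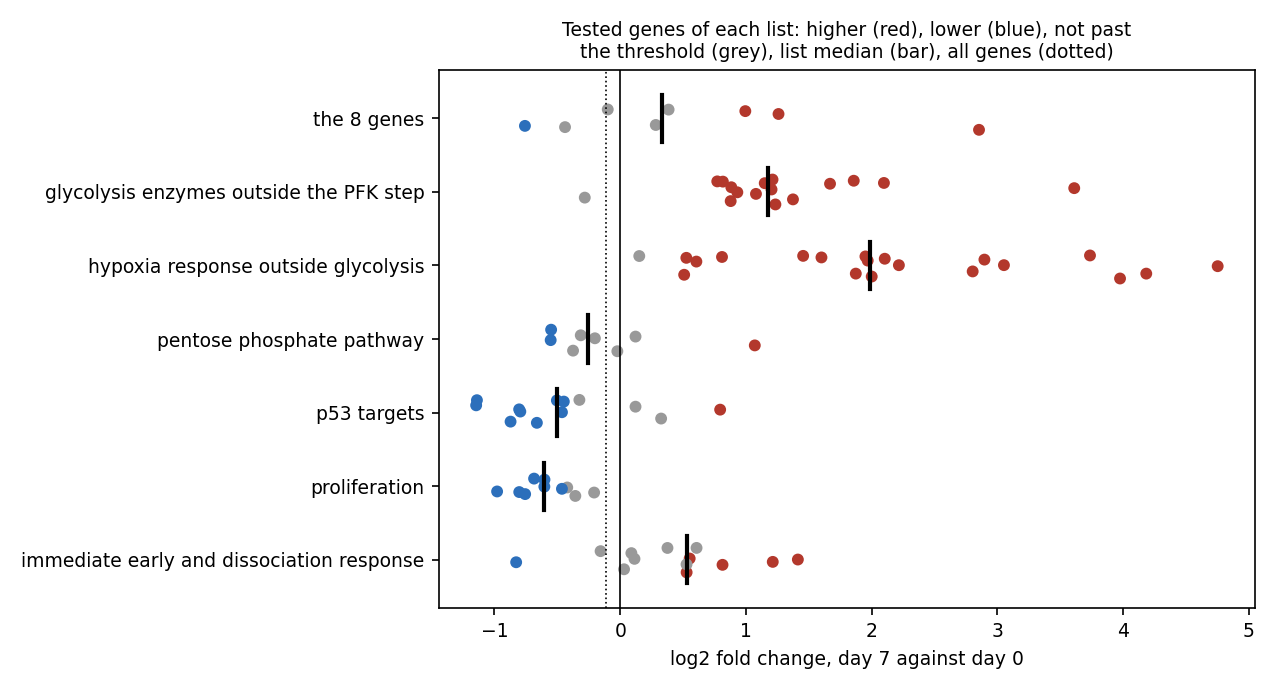
Log2 fold change at day 7 against day 0 of each tested gene in 7 groups (points, red higher, blue lower, grey not past the threshold by limma, n = 3 per stage), with a bar at the median of the group and a dotted line at the median of all genes, −0.11. The 8 genes spread from −0.76 for Pfkfb1 to 2.85 for Pfkfb3, the glycolysis list has its median at 1.18 and the hypoxia list at 1.98.

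The genes most like each of the 8 were found by Pearson's r of log2(CPM + 0.5) over the 9 libraries, among about 9100 genes whose mean over these libraries reached 10 CPM, as a description only, since all points share their libraries and stages. For Pfkl they were Tpi1 (r = 0.998), Kdm7a (0.995) and Pgk1 (0.994), of which Tpi1 and Pgk1 encode glycolytic enzymes. For Pfkfb3 they were Sdc3 (0.998), a syndecan, Fxyd1 (0.994) and Ppm1e (0.992). For Pfkp they were Epm2a (0.995), the glycogen phosphatase laforin, Maff (0.994) and Rnf144a (0.992), each with its highest mean at day 4 as for Pfkp. For Pfkm they were Ctsa (0.965), Id2 (0.960) and Xylt1 (0.952).

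Pfkfb4 was closest to Rps27l (0.985), Tmem208 (0.984) and Chkb (0.980), Tigar to Aco1 (0.977), Zfp777 (0.973) and Rtf1 (0.970), Pfkfb2 to Guf1 (0.955), Ankrd16 (0.929) and Gm9800 (0.917), and Pfkfb1 to Cabin1 (0.923), Ezr (0.909) and Cyp4f17 (0.908). Among the 8 themselves, r was 0.943 between Pfkl and Pfkp, 0.935 between Pfkl and Pfkfb3, 0.838 between Pfkp and Pfkfb3 and −0.692 between Pfkfb3 and Tigar.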

How the data were processed

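Per the labels, ribosomal RNA was depleted with Ribo-Zero Gold. According to the study's methods, the authors aligned reads to the mouse genome (Ensembl release 76; the submitters' processing notes name GRCm38) with STAR 2.0.4b, and used featureCounts to count the reads that aligned to 1 place and belonged to 1 gene. They deposited CPM, which scale reads to the total on genes, and RPKM, which the authors also divided by gene model length. Lines that repeated a gene held the same values and were read once. Dividing CPM by the value of 1 read gave whole numbers for 100% of the values (tolerance 0.02 read), so reads were recovered. Replicates of a stage differed by more than sampling noise, with chi-square values of 11.7 to 203 per degree of freedom. Since the culture each came from is not given, p-values refer to the spread between libraries and not between known cultures. For limma this spread is largely pooled over genes.

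Stages were taken from the sample labels. The main test was limma 3.58.1 in R 4.3.3 with a variance trend, in genes whose CPM averaged 1 or more in the 6 libraries of days 0 and 7. There were 42.9 prior and 4 residual degrees of freedom, so a gene's own replicates count little in its p-value. Exact permutation tests used scipy 1.17.1. edgeR 4.0.16, DESeq2 1.42.0 and voomWithQualityWeights on recovered reads were alternatives, as were other pseudocounts, filters, scalings and lengths, and leaving out each library. The study's methods name TMM scaling, an adjustment for library size, and limma with voomWithQualityWeights. That alternative is therefore the nearest to the authors' own test. The steps were tested on simulated data. Gene positions, transcript lengths and overlaps come from GENCODE M21 (GRCm38), and promoters from RefSeq (GRCm38.p6). Proteins were not used here.

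The rule for the 8 genes reads symbols only, but the 8 genes and the lists were proposed with earlier results of these data known. Besides the 8 genes, the text names the 3 genes with the highest r for each of the 8. In each list outside the cell type markers it names the called gene that rose most and the one that fell most. Of the genes with overlapping exons it names some, for Pfkp, Pfkm, Pfkfb2 and Pfkfb1. Eno2, Adm, Pck2, G6pc3 and G6pdx were named after their values were seen, as were the single markers of cell types. Gpi1, Fbp1 and Fbp2 are named as enzymes that precede or reverse the PFK1 step.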

Additional observations from a re-analysis of the deposited data

How the results depend on the processing

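Pfkl, Pfkp and Pfkfb3 were called higher under all 17 alternatives. Of the 8 genes, 5 were called higher by edgeR, by DESeq2, by voomWithQualityWeights and after median-of-ratios scaling, where Pfkm and Pfkfb4 joined, against 3 as deposited. The count of lower genes, 1 as deposited, was 0 with any reads, a mean CPM of at least 5, median-of-ratios scaling, edgeR and DESeq2, and 0 to 1 when 1 library was left out. With voomWithQualityWeights and without day 0 replicate 3 the 1 lower gene was Tigar in place of Pfkfb1. Pfkfb2 turned from −0.10 to 0.0048 with median-of-ratios scaling, 0.017 with edgeR, 0.018 with DESeq2 and 0.049 with voomWithQualityWeights. The cause was not tested.

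The difference in share between day 7 and day 0, in percentage points, moved by CPM without length to −5.62 for Pfkm, −1.72 for Pfkp, −5.05 for Pfkfb1 and −22.4 for Pfkfb2. With coding transcript lengths it was −7.05 for Pfkm, −10.3 for Pfkfb1 and −18.9 for Pfkfb2, and with Tigar counted among the PFKFB genes −4.75 for Pfkfb1, −10.5 for Pfkfb2 and −11.4 for Pfkfb4.

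Over all genes, 1602 were higher as deposited and 2827 with median-of-ratios scaling, 2818 by edgeR, 2581 by DESeq2 and 3148 by voomWithQualityWeights. The 2369 lower genes became 4696 without day 0 replicate 3, 1527 without day 0 replicate 2 and 1548 without day 7 replicate 2. After median-of-ratios scaling the lists gave 1 higher gene in place of 0 for gluconeogenesis, 2 in place of 1 for the pentose phosphate pathway and 3 in place of 1 for p53 targets.

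Day 0 and day 7 libraries with the same replicate number did not deviate together (correlations of −0.017, −0.18 and −0.44), so these numbers were not taken as pairs. Day 4 was not part of this check. With a replicate block the 8 genes still gave 3 higher and 1 lower, and all genes gave 1463 and 1950. Depth limits Pfkfb1, with as few as 9 reads in a library, and intervals on reads cover counting error only.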
